A study of Mus musculus with 8 samples.

Results

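The Toll-like receptors and their transport protein Unc93b1 were examined in RNA sequencing libraries labelled mouse liver. Members were the rows of the deposited gene table whose symbol was Tlr1, Tlr2, Tlr3, Tlr4, Tlr6, Tlr7, Tlr8, Tlr9, Tlr13 or Unc93b1, and all 10 were found once among the 22063 genes of the table. The study compared 4 libraries labelled control with 4 labelled control plus tranilast, an oral anti-allergic drug of the cinnamoyl anthranilic acid type. The series design names a high-fat, high-cholesterol (HFHC) diet for both groups, and all libraries carry the genotype label WT. Per the study's methods the animals of the diet model were male C57BL/6J mice. They were gavaged daily with sodium carboxymethylcellulose or tranilast over the last 8 weeks of feeding. A figure legend of the study gives their age at grouping as 8 weeks, and its methods a range of up to 8 weeks when obtained. The labels give neither the dose behind the sequenced libraries nor whether each library came from a separate animal, so p-values below measure the spread between libraries.

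Toll-like receptors recognise conserved microbial molecules through a leucine-rich ectodomain and signal through a cytoplasmic TIR domain. Tlr1, Tlr2, Tlr4 and Tlr6 act mainly at the cell surface on lipoproteins and lipopolysaccharide, whereas Tlr3, Tlr7, Tlr8, Tlr9 and Tlr13 act in endosomes on nucleic acids and reach them with the help of Unc93b1, a membrane protein that carries them out of the endoplasmic reticulum. In liver these receptors are best known on resident and recruited macrophages, although hepatocytes and other cells also carry some of them.

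Total counts ran from 12053036 to 15618787 per library. A count of 3 corresponded to 0.192 to 0.249 CPM, a level relative to the library total, here without the scaling factors used for the genes. The first principal component of log2 CPM (57.9% of the variance of the 1000 most variable genes) separated the groups. The libraries went against their tissue label in the markers of liver cells. The 10 hepatocyte markers together held at most 4.4e-04% of the counts of a library, Serpina1a, Cyp3a11, Cps1 and Hnf4a were at 0 in all 8 libraries, and albumin (Alb) reached at most 2 counts. The Kupffer cell markers Clec4f, Vsig4 and Timd4 were also at 0, and the neutrophil list held at most 4.5e-05%. In contrast, 12 macrophage markers held 0.908% to 0.962% of the counts in the control libraries and 0.886% to 0.945% in the tranilast libraries, led by Lyz2 (51266 to 68974 counts), Csf1r (29717 to 38395) and Cd14 (16847 to 21605). The tissue macrophage markers of the same list were near absent, with Mertk at 0 to 1, C1qa at 0 to 11, C1qb at 0 to 6 and C1qc at 0 to 8 counts. Of the 8 macrophage markers that passed the filter on low counts, 2 were higher and 5 lower with tranilast. Over all genes tested 28.2% were higher and 28.8% lower. Adgre1 had a log2 fold change of 0.21 and the Fc receptor gene Fcgr1 one of -1.42. The part of these marker differences in the results below was not tested. Since all 8 libraries shared this profile, no result could be repeated without it, and that the RNA came from whole liver of treated animals rests on the labels and the study's methods, not on these values. In bulk RNA, fewer cells of a type and less RNA per cell cannot be told apart.

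Sequence decided what could be measured for Tlr1 and Tlr6, the neighbouring receptors that each pair with Tlr2. These were the members with fractional counts, and in all 8 libraries their sum was whole within 0.01, between 407 and 529. Both genes lie on the minus strand of chromosome 5 (GRCm38), Tlr1 (ENSMUSG00000044827) at chr5:64924679-64933563 and Tlr6 (ENSMUSG00000051498) at chr5:64952031-64960097. Their exons share several identical stretches, of which the longest is a run of 229 coding bases, at chr5:64925537-64925765 in Tlr1 and chr5:64953828-64954056 in Tlr6. Of all 100-base stretches of the exons, 8.85% of those of Tlr1 and 7.24% of those of Tlr6 occurred in the other gene, while the other 8 members shared none with any member. The 70 coding bases at each edge of the identical run are shown because they hold the nearest bases that separate the receptors, which are in capitals. The first pair is the upstream edge (chr5:64925736-64925805 and chr5:64954027-64954096) and the second the downstream edge (chr5:64925497-64925566 and chr5:64953788-64953857), each read 5′ to 3′ on the minus strand.
Tlr1 upstream edge: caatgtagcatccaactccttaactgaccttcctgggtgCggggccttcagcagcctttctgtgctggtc
Tlr6 upstream edge: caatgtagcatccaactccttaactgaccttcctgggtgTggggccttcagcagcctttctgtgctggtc
Tlr1 downstream edge: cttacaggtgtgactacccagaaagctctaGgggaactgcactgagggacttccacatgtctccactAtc
Tlr6 downstream edge: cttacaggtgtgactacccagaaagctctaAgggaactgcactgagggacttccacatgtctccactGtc
The upstream pair differed at 1 base and the downstream pair at 2. A read pair that lies wholly inside a shared stretch cannot be placed in either gene, and how the authors' counting shared such reads is not given in the sources used here.

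With tranilast, Tlr2, Tlr4 and Tlr13 were higher, Tlr9, Tlr3, Tlr7 and Tlr1 were lower, and Tlr6 and Unc93b1 did not pass the test. Of the 9 members that passed the filter, 7 were called, that is, had an adjusted p under 0.05 by edgeR (quasi-likelihood, Benjamini-Hochberg over 10770 genes), where 57.0% of all genes tested passed (28.2% higher and 28.8% lower). The shifts were small, from a log2 fold change of -0.53 for Tlr9 to 0.32 for Tlr2. No member passed the log2 threshold of 1.5 that the study used or one of 0.585 (1.5-fold). Past 0.585, 11.6% of all genes were called. By edgeR 8 members had an unadjusted p under 0.05. The share of all genes with an unadjusted p under 0.05 was not computed. It is at least the 57.0% that were called, so the 8 members have no like share beside them. For 4 members the CPM of the groups did not overlap, higher in Tlr2, Tlr4 and Tlr13 and lower in Tlr9; 49.8% of all genes had groups that did not overlap (24.5% higher and 25.2% lower). An exact two-sided permutation test of 4 against 4 libraries cannot go below p = 0.0286, and these 4 members reached that value.

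**Figure D1:**
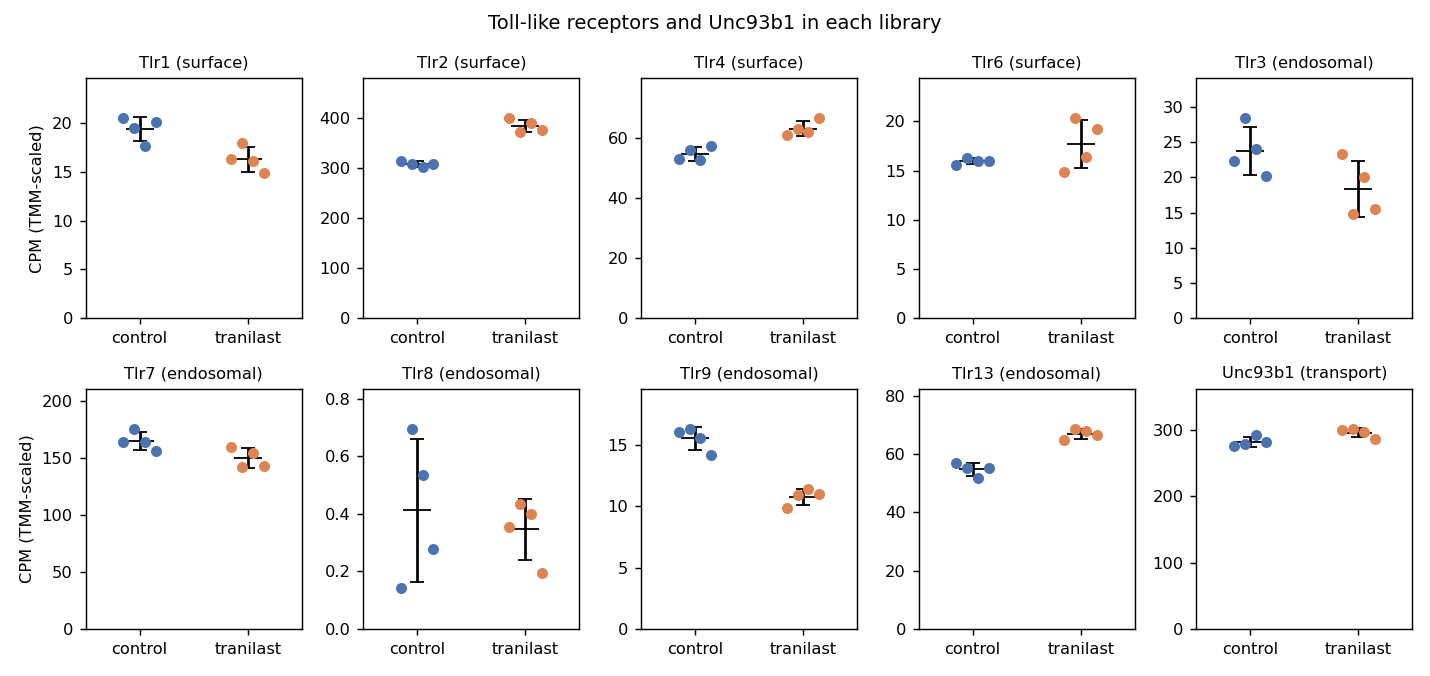
CPM scaled by TMM factors (y axis, from 0, with its own range in each panel) of each member in the 4 control libraries (blue) and the 4 tranilast libraries (orange), with the mean and SD of each group as a bar. Groups are apart for Tlr2, Tlr4, Tlr9 and Tlr13, and overlap for the other 6 members.

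Tlr2, the receptor that pairs with Tlr1 or Tlr6 to detect bacterial lipoproteins, was the most abundant receptor. Its level was 315, 308, 302 and 308 CPM in control libraries 1 to 4 and 399.8, 372, 390.1 and 377 CPM in tranilast libraries 1 to 4. Every tranilast library was above every control library. The mean rose from 308 ± 5.03 to 385 ± 12.8 CPM (SD, n = 4 each), a log2 fold change of 0.32 (SE 0.03, 95% interval 0.26 to 0.38, edgeR adjusted p = 4.5e-08), or 1.25-fold. The gene (ENSMUSG00000027995) lies at chr3:83836272-83841767 on the minus strand.

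Tlr4, the receptor for lipopolysaccharide together with Ly96 (MD-2), moved the same way by a smaller amount. Control libraries held 52.9, 56, 52.6 and 57.4 CPM, and tranilast libraries 60.9, 63.1, 62.1 and 66.6 CPM, again without overlap. The log2 fold change was 0.21 (SE 0.048, 95% interval 0.11 to 0.31, edgeR adjusted p = 0.00131), from 54.7 ± 2.33 to 63.2 ± 2.42 CPM (SD, n = 4 each). The gene (ENSMUSG00000039005) lies at chr4:66827584-66930284 on the plus strand.

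Tlr1 and Tlr6 are the partners that set which lipoproteins Tlr2 binds, those with more or with fewer acyl chains respectively. Tlr1 was at 20.5, 19.5, 17.7 and 20.1 CPM in the control libraries and at 16.3, 18, 16.1 and 14.9 CPM in the tranilast libraries, and the groups overlapped in 1 library each. It fell by 0.25 on the log2 scale (SE 0.085, edgeR adjusted p = 0.0173; exact permutation p = 0.0571). Tlr6 was at 15.6, 16.3, 16 and 16 CPM in the control libraries and spread from 14.9 to 20.3 CPM with tranilast, a log2 difference of 0.15 that did not pass (95% interval -0.05 to 0.36, edgeR adjusted p = 0.199). The share of the summed counts assigned to Tlr1 also differed. It was 56.9%, 54.4%, 52.6% and 55.7% in the control libraries and 52.2%, 46.9%, 49.5% and 43.8% in the tranilast libraries. When both genes were summed, a measure chosen after seeing the fractional counts, the level was 35.4 ± 1.15 CPM in controls and 34 ± 3.09 CPM with tranilast (SD, n = 4 each). The summed log2 difference of -0.06 (95% interval -0.20 to 0.08, edgeR adjusted p = 0.484) did not pass, and a misdivision of shared reads cannot be told apart from a change of Tlr1 alone. The call on Tlr1 was also lost with library size alone (-0.14, edgeR adjusted p = 0.18), with upper-quartile factors (-0.19, 0.0741), on the FPKM scales (-0.15 and -0.13, limma adjusted p = 0.139 and 0.135), after thinning to the smallest library (-0.21, edgeR adjusted p = 0.0556) and without tranilast replicate 4 (-0.21, 0.0669). Relative to the median of all genes Tlr1 stood between -0.27 and -0.24 with library size alone, with upper-quartile factors and on the FPKM scales. Without tranilast replicate 1 the log2 difference of Tlr6, not set against that median, was 0.23 (edgeR adjusted p = 0.0491).

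The endosomal receptors did not move as a class. Tlr9, the receptor for unmethylated CpG DNA, had the largest fall of the members. Its level was 16.1, 16.3, 15.6 and 14.2 CPM in the control libraries and 9.87, 10.9, 11.4 and 11 CPM in the tranilast libraries. The highest tranilast library was below the lowest control library. The mean fell from 15.6 ± 0.978 to 10.8 ± 0.653 CPM (SD, n = 4 each), a log2 fold change of -0.53 (SE 0.094, 95% interval -0.73 to -0.33, edgeR adjusted p = 1.1e-04), or a fold of 0.69. The gene (ENSMUSG00000045322) lies at chr9:106222598-106226883 on the plus strand.

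Tlr13, a receptor for bacterial ribosomal RNA, went the other way. Control libraries held 57.1, 55.2, 51.8 and 55.3 CPM and tranilast libraries 64.8, 68.6, 67.8 and 66.6 CPM, without overlap. The log2 fold change was 0.29 (SE 0.046, 95% interval 0.19 to 0.38, edgeR adjusted p = 3.7e-05), from 54.9 ± 2.21 to 67 ± 1.68 CPM (SD, n = 4 each). The intervals of Tlr9 and Tlr13, both endosomal, lay on opposite sides of 0. Tlr13 (ENSMUSG00000033777) lies at chrX:106143204-106160493 on the plus strand.

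Tlr7, the receptor for single-stranded RNA, was the most abundant endosomal receptor. It was at 164, 175, 164 and 156 CPM in the control libraries and at 159.6, 142, 154 and 143 CPM in the tranilast libraries, with overlap. It fell by 0.14 on the log2 scale (SE 0.044, edgeR adjusted p = 0.0113; exact permutation p = 0.0571). This call rested on the scaling. On the authors' FPKM scale, which is relative to the library total and to transcript length, the means were 43.9 ± 1.19 in controls and 44 ± 0.197 with tranilast (SD, n = 4 each), a log2 difference of 0.01 (limma adjusted p = 0.882). On that scale the median over all genes tested was 0.12, against 0.01 with TMM factors, and relative to that median Tlr7 stood at -0.11. Without tranilast replicate 2 its value was -0.11 (edgeR adjusted p = 0.0543) and without tranilast replicate 4 also -0.11 (0.0546). The gene (ENSMUSG00000044583) lies at chrX:167304929-167330558 on the minus strand.

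Tlr3, the receptor for double-stranded RNA, varied more between libraries than the other tested receptors, by the ratio of SD to mean CPM in either group. It was at 22.4, 28.4, 24.1 and 20.2 CPM in the control libraries and at 23.3, 14.8, 20 and 15.5 CPM in the tranilast libraries. Tranilast library 1 lay among the controls and library 3 just below the lowest of them. The log2 fold change was -0.37 (SE 0.13, 95% interval -0.64 to -0.10, edgeR adjusted p = 0.0193), while the exact permutation test gave p = 0.114. The value was -0.28 without control replicate 2 (edgeR adjusted p = 0.076), -0.28 without tranilast replicate 2 (0.0822) and -0.29 without tranilast replicate 4 (0.0774). The call was also lost with library size alone (-0.26, edgeR adjusted p = 0.0882) and on the FPKM scales (-0.25 and -0.21, limma adjusted p = 0.351 and 0.365). Tlr3 (ENSMUSG00000031639, chr8:45395665-45411080, minus strand) overlaps exons of the antisense gene Gm45542, and whether the counting used strand is not given in the sources used here. Tlr8, a neighbour of Tlr7 on chromosome X, had 2, 10, 8 and 4 counts in the control libraries and 5, 6, 5 and 3 in the tranilast libraries. At this depth no difference was detectable: without the filter its log2 difference was -0.27 with a 95% interval of -1.61 to 1.07 (edgeR adjusted p = 0.779).

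Unc93b1, on which the endosomal receptors depend for transport, was at 275, 279, 292 and 281 CPM in the control libraries and 299, 301, 296 and 286 CPM in the tranilast libraries. Control library 3 was above tranilast library 4. The log2 difference of 0.07 (SE 0.03, 95% interval 0.00 to 0.13) did not pass the test (edgeR adjusted p = 0.0637; exact permutation p = 0.0571). Of 21 alternatives it stayed as reported in 14 and passed in 7. It passed without control replicate 3 (0.08, edgeR adjusted p = 0.0311) and without tranilast replicate 4 (0.09, edgeR adjusted p = 0.0274). Thinned to the smallest library it passed as well (0.08, edgeR adjusted p = 0.0294). Upper-quartile factors (0.135, edgeR adjusted p = 0.000711) and the FPKM scales (0.206 and 0.205, limma adjusted p = 0.00105 and 0.00107) also gave a pass. It also passed with scaling by library size alone (0.18, edgeR adjusted p = 3.3e-05), where the median over all genes was 0.12, so that relative to the other genes it stood at 0.06. The gene (ENSMUSG00000036908) lies at chr19:3935186-3949340 on the plus strand.

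**Figure D2:**
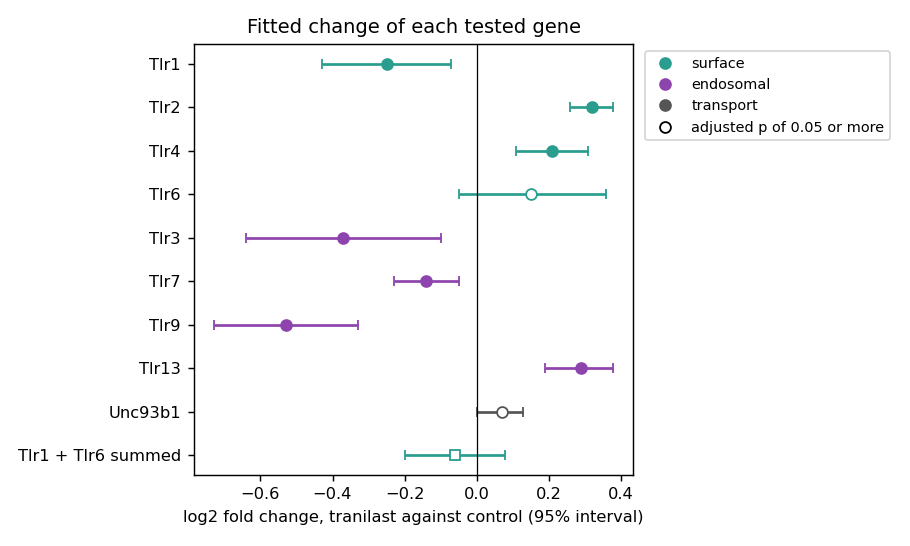
Log2 fold change of tranilast against control (x axis) with its 95% interval for the 9 tested members and for Tlr1 and Tlr6 summed (square); open symbols did not pass. Surface receptors (green) and endosomal receptors (purple) lie on both sides of 0, from -0.53 for Tlr9 to 0.32 for Tlr2.

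Across 21 alternatives of scaling, tool, filter, depth and left-out libraries, Tlr2 (0.29 to 0.43), Tlr4 (0.19 to 0.33), Tlr9 (-0.57 to -0.33) and Tlr13 (0.26 to 0.40) kept the sign of their log2 fold change and an adjusted p under 0.05. The other 5 tested members crossed the threshold in at least 1 alternative.

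**Figure D3:**
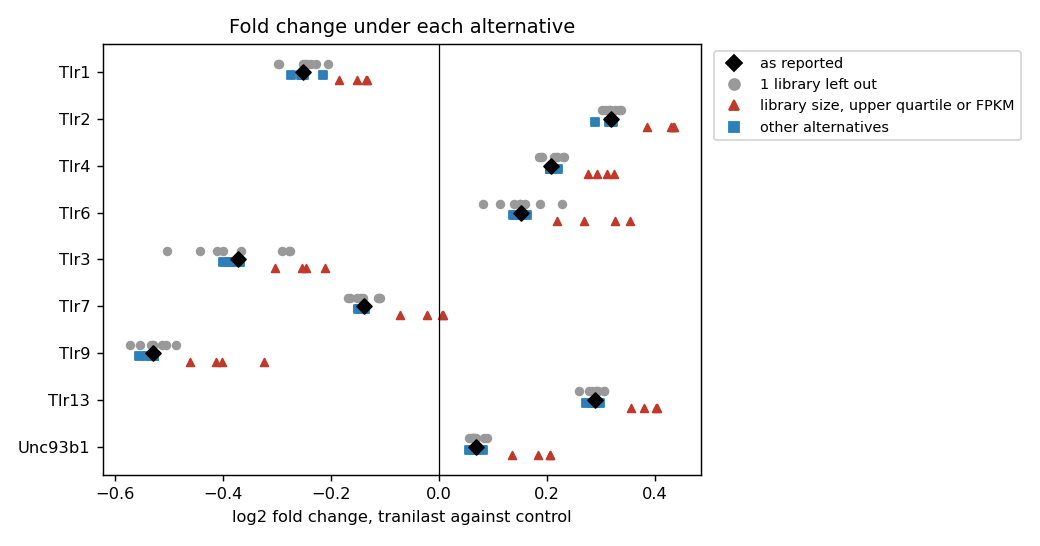
Log2 fold change of tranilast against control (x axis) of the 9 tested members as reported (diamonds), with 1 library left out (grey circles), with scaling by library size or upper quartile or on the FPKM scale (red triangles) and under the other alternatives (blue squares). The triangles lie to the right of the diamonds for every member, and Tlr7 alone reaches 0.

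Set by location, 2 of the 4 surface receptors were higher, 1 was lower and 1 did not pass, with a median log2 fold change of 0.18. Of the 4 endosomal receptors tested, 1 was higher and 3 were lower, with a median of -0.26. Over all genes tested the median was 0.01, with 28.2% called higher and 28.8% called lower. The lower calls of Tlr1, Tlr3 and Tlr7 were each lost in at least 1 alternative, while that of Tlr9 was kept in all. These medians describe few genes chosen with earlier results known and carry no test.

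Levels between receptors were compared per transcript length, in FPKM. The place of Tlr1 and Tlr6 depended on the length used, since in CPM the control mean of Tlr1 (19.4) was above that of Tlr6 (16). Control means in FPKM ran in the order Unc93b1 (128), Tlr2 (98.2), Tlr7 (43.9), Tlr4 (13), Tlr13 (13), Tlr6 (9.43), Tlr3 (7.43), Tlr1 (6.51), Tlr9 (4.29) and Tlr8 (0.183). In the control libraries Tlr4 and Tlr13 overlapped, as did Tlr6 and Tlr3, and every other pair of neighbours was apart. With tranilast the order was Unc93b1 (147), Tlr2 (133), Tlr7 (44), Tlr13 (17.2), Tlr4 (16.2), Tlr6 (12.1), Tlr3 (6.54), Tlr1 (5.85), Tlr9 (3.23) and Tlr8 (0.114), so the order changed for Tlr4 and Tlr13 alone, which overlapped in both groups.

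Endosomal receptors held 35.1%, 35.8%, 34.8% and 34.7% of the summed FPKM of the 9 receptors in the control libraries and 30.3%, 29.8%, 30.1% and 29.2% in the tranilast libraries. The mean share was 35.1% ± 0.481 in controls and 29.9% ± 0.48 with tranilast (SD, n = 4 each), and the groups did not overlap. Summed FPKM of the surface receptors was 127 ± 1.68 in controls and 167 ± 1.28 with tranilast, most of it Tlr2, whereas that of the endosomal receptors was 68.7 ± 2.18 and 71.1 ± 2.14. On the FPKM scale the share therefore differed mainly through its surface part. The median log2 fold change over all genes tested was 0.12 on that scale, against 0.01 with TMM factors. Relative to other genes, a flat summed FPKM is thus not a flat level. The share is given as a description without a test.

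**Figure D4:**
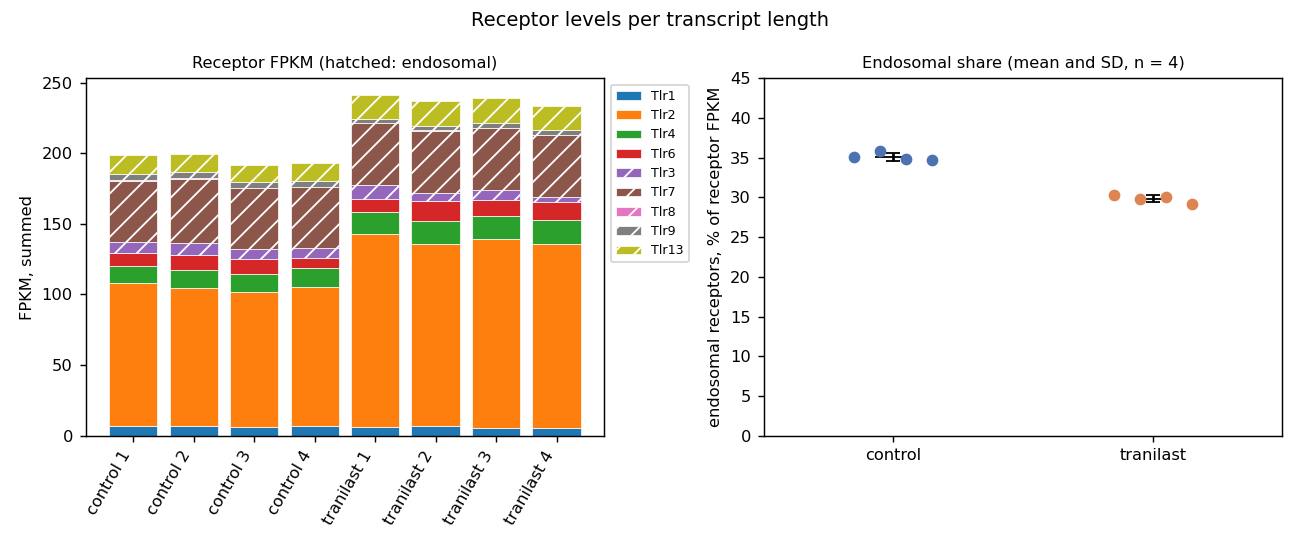
Left, stacked FPKM of the 9 receptors in each library (y axis from 0; hatched segments are endosomal receptors); right, endosomal receptors as a percent of receptor FPKM in each library, with the mean and SD of 4. The Tlr2 segment is taller in the tranilast bars, and the endosomal share is 34.7% to 35.8% in controls and 29.2% to 30.3% with tranilast.

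RefSeq promoter entries (GRCm38.p6, 250 bases before to 50 after the start) were found for 7 of the 10 members. The entries of Tlr2, Tlr9 and Tlr13 are shown because these are the members with an entry whose groups did not overlap. Capitals mark matches, on either strand, to GAGGAAG (a core bound by PU.1, the myeloid factor encoded by Spi1), the NF-kB motif (GGGA, any 4 bases, CC) and TGANTCA (AP-1).
Tlr2, chr3:83841559-83841858, minus strand: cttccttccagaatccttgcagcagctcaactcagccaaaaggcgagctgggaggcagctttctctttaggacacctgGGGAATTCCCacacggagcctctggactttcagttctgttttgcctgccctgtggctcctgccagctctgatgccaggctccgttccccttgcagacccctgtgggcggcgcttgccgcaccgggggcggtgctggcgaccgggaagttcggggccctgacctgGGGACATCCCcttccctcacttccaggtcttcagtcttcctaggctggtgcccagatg
Tlr9, chr9:106222348-106222647, plus strand: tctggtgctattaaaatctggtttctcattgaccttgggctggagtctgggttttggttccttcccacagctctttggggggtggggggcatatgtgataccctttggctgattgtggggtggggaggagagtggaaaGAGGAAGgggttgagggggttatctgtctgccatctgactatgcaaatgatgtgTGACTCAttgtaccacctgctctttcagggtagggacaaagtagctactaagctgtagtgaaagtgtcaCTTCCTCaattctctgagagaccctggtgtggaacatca
Tlr13, chrX:106143025-106143324, plus strand: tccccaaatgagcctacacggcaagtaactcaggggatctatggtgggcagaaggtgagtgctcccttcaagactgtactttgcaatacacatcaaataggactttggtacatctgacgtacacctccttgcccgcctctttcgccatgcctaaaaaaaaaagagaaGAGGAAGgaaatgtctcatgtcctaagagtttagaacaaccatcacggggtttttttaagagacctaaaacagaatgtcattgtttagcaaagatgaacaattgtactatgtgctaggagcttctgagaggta
Tlr9 held 2 matches to GAGGAAG and 1 to TGANTCA, Tlr13 held 1 to GAGGAAG, and Tlr2 held 2 to the NF-kB motif. Thus the receptor that fell most and one that rose both held GAGGAAG. Tlr1 and Tlr6 had 2 entries each. Of the other entries, Tlr3 held 3 matches to the NF-kB motif, 1 entry of Tlr1 held 1 to GAGGAAG and 1 entry of Tlr6 held 2 overlapping matches to an interferon response motif (GAAA, any 2 bases, GAAA), while Tlr8 held none of the 4 motifs. Among 32851 promoters of the same length, 13.6% held GAGGAAG, 20.7% the NF-kB motif, 7.81% TGANTCA and 3.44% the interferon response motif. A match describes letters and not binding.

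Around the receptors, 8 lists of pathway genes held 72 genes, of which 60 passed the filter; 16 were higher, 26 lower and 18 did not pass, with a median log2 fold change of -0.06. That is 70% called, against 57.0% of all genes tested. The other mouse receptors were near absent: Tlr11 and Tlr12 had no count in any library, and Tlr5 had 0 to 2 counts. No count allows up to 0.249 CPM of the unscaled library total by counting error alone. The genes that the deposited annotation assigned to the KEGG Toll-like receptor pathway, leaving out members, numbered 94, with 65 tested, 18 higher, 25 lower and 22 not passing.

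Of 5 surface co-receptors tested, 4 were lower, 1 did not pass and none was higher, with a median of -0.65; over all genes tested 28.8% were lower. Cd14, one of the 4, changed sign with the scaling. Cd36, a scavenger receptor that assists Tlr2 with Tlr6, was at 88.4 to 103 CPM in controls and 50.6 to 61.1 CPM with tranilast (log2 fold change -0.76, edgeR adjusted p = 3.2e-09). Cd180, a receptor homologue that tempers Tlr4 signalling, and its partner Ly86 (MD-1) fell together, by 0.66 and 0.65 on the log2 scale. Cd180 was at 116 ± 1.6 CPM in controls and 73.2 ± 2.33 CPM with tranilast, and Ly86 at 95.8 ± 3.12 and 61 ± 4.79 CPM (SD, n = 4 each). Cd14, which hands lipopolysaccharide to Tlr4, stood at 1430.5 ± 50.5 CPM in controls and 1364 ± 29.8 CPM with tranilast, a log2 fold change of -0.07 (edgeR adjusted p = 0.0293) that turned to 0.05 with scaling by library size alone. Ly96, the obligate partner of Tlr4, was low, with 34 to 52 counts, and its difference of 0.10 did not pass (edgeR adjusted p = 0.714). Lbp had at most 2 counts.

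Among 12 tested genes for folding, transport and processing of the receptors, 4 were higher, 5 lower and 3 did not pass, with a median of 0.00. That is 75% called, against 57.0% of all genes tested (28.2% higher and 28.8% lower). Hsp90b1 (gp96), the chaperone that folds most of these receptors, fell from 1691 ± 39.4 to 1414 ± 32.4 CPM (log2 fold change -0.26, edgeR adjusted p = 2.6e-08; SD, n = 4 each), while Cnpy3, its cofactor, was higher by 0.18. Lrrc59, which helps receptors leave the endoplasmic reticulum, was lower at -0.30, and Slc15a3, an endosomal peptide and histidine transporter, at -0.41. The proteases that trim endosomal receptors split, with Ctsb (cathepsin B) higher at 0.27 and Lgmn (legumain) lower at -0.19.

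The adaptors couple the receptors' TIR domains to kinases. Myd88, used by all of the receptors but Tlr3, was lower, from 70.5 ± 2.83 to 58.2 ± 3.47 CPM (log2 fold change -0.28, edgeR adjusted p = 1.4e-04; SD, n = 4 each). Ticam2 (TRAM), the bridging adaptor of Tlr4, was lower at -0.30 (edgeR adjusted p = 0.00769) with overlapping groups. The call was lost with library size alone (-0.18, edgeR adjusted p = 0.088) and on the FPKM scales (-0.17 and -0.16, limma adjusted p = 0.198 and 0.199). Counts of Ticam2 were fractional in every library, as were those of Ctsb and, in some libraries, of Irf5. Whether these genes share reads with other genes was not tested. Ticam1 (TRIF) and Tirap did not pass, at -0.06 and 0.11. Sarm1, outside the rule for naming because of its low counts and named after its values were seen, had 9, 12, 1 and 13 counts in controls and 27, 16, 23 and 29 with tranilast (log2 fold change 1.47, edgeR adjusted p = 0.00558).

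Among 14 kinases and ligases, 6 were higher, 5 lower and 3 did not pass. That is 78.6% called, against 57.0% of all genes tested (28.2% higher and 28.8% lower). Irak4 and Irak2, kinases recruited by Myd88, were higher at 0.31 and 0.22, while Irak1 was lower at -0.12 (edgeR adjusted p = 0.0179). Ikbkg (NEMO), the regulatory subunit of the IkB kinase complex, was higher at 0.32, and Ikbkb was lower at -0.15 (edgeR adjusted p = 0.0192). For Irak1 and Ikbkb the groups overlapped. Traf3, a ligase on the interferon branch, was lower at -0.23 and Tab2, an adaptor of the kinase Map3k7, at -0.16. On the FPKM scale both lost the call, at -0.02 for Traf3 and -0.01 for Tab2. Tab2 also lost it with library size alone (-0.045, edgeR adjusted p = 0.329). Of 8 negative regulators, 1 was higher, 2 lower and 5 did not pass, that is 37.5% called, below the share of all genes tested. Tnfaip3 (A20), a deubiquitinase that restrains NF-kB, was lower at -0.41 and Pik3ap1 (BCAP) at -0.35, while Tollip was higher at 0.30.

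Of 8 transcription factors of the pathway tested, 5 were lower, 1 was higher and 2 did not pass, with a median of -0.25, where 28.8% of all genes tested were lower. Irf7, the interferon regulatory factor downstream of Tlr7 and Tlr9, varied between libraries, with 173, 199.7, 188 and 128 CPM in controls and 136, 89, 123 and 80.9 CPM with tranilast. Its log2 fold change was -0.69 (edgeR adjusted p = 3.0e-04), and the groups overlapped. Spi1 fell from 364 ± 11.3 to 276 ± 7.05 CPM (log2 fold change -0.40, edgeR adjusted p = 3.2e-09; SD, n = 4 each). Irf5 (-0.40), Irf8 (-0.27) and Nfkb1 (-0.24) were also lower.

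Products that these receptors induce were split. Of 15 genes, 8 passed the filter. Among these, 3 were higher, 3 lower and 2 did not pass. That is 75% called, against 57.0% of all genes tested (28.2% higher and 28.8% lower). The chemokines Ccl3, Cxcl2 and Ccl4 were higher, at log2 fold changes of 0.79, 0.66 and 0.65, with Ccl3 at 62 to 85.9 CPM in controls and 119.7 to 138 CPM with tranilast. Cxcl10, an interferon-induced chemokine, was lower at -1.14 (edgeR adjusted p = 3.4e-04), from 11.8 to 21.1 CPM down to 5.74 to 12.9 CPM, and Ptgs2 (cyclooxygenase) was lower at -0.58. Il12b and Cxcl1 had no count in any library, and Il6, Il10 and Ifnb1 had at most 1.

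**Figure D5:**
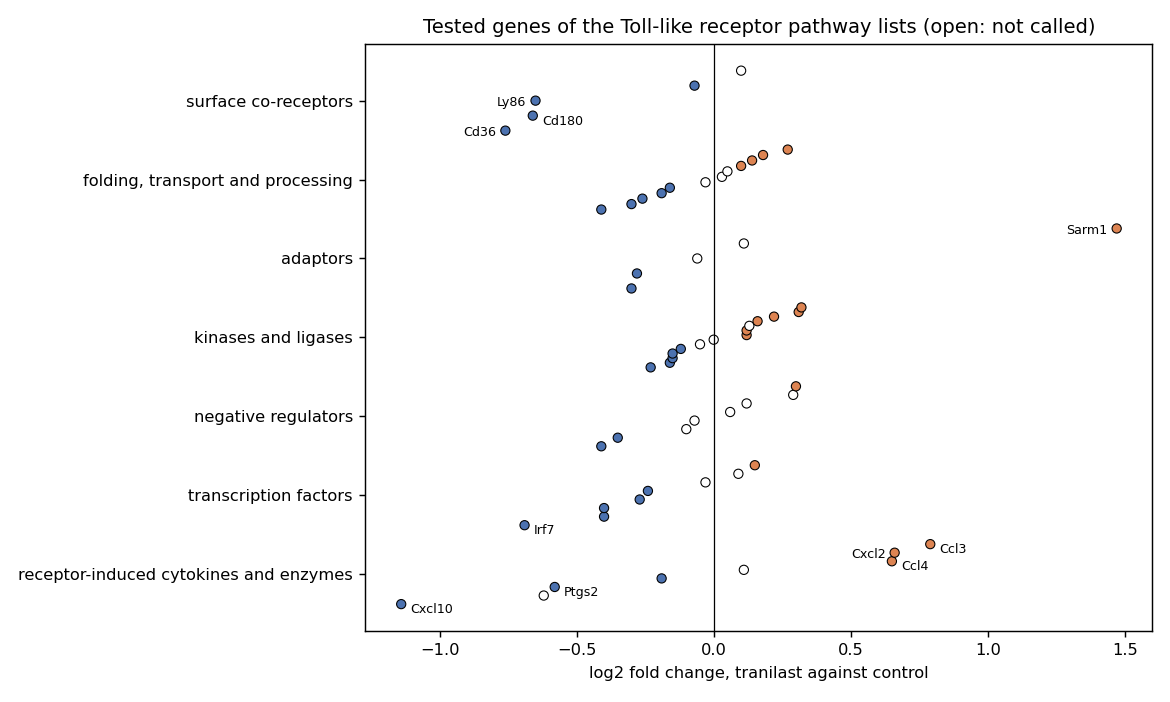
Log2 fold change of tranilast against control (x axis) for the 60 tested genes of the pathway lists, 1 row of points per list; orange points were higher, blue points lower and open points did not pass. Called surface co-receptors all lie to the left of 0 with TMM factors (Cd14 moves to 0.05 with library size alone), and the receptor-induced products run from -1.14 for Cxcl10 to 0.79 for Ccl3.

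The genes likest to Tlr9 across the 8 libraries, by Pearson correlation of log2 CPM, were Map3k1 (0.995), Fam83d (0.993), Il13ra1 (0.991), Dido1 (0.991) and Tnip3 (0.990). These were chosen as the highest of 9764 genes, 1290 of which were above 0.9, and since the libraries fall into 2 groups the values also carry the difference between the groups.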

How the data were processed

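RNA was extracted with Trizol and poly-A libraries were sequenced from both ends on an Illumina instrument. The authors deposited 1 table of 22063 genes with an estimated count and an FPKM per gene and library; 92.7% to 93.9% of the counts in a library were whole. The aligner, counter and genome build are not given in the sources used here. The authors' deposited FPKM values are relative to transcript length and library total, but not to 1 fixed length per gene. Tlr6 in control libraries 2 and 4 was at 16.3 and 16 CPM but had an FPKM of 10.7 and 7.54. Differences on the FPKM scale can therefore carry the length used as well as the scaling.

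Estimated counts were rounded and tested with edgeR 4.0.16 in R 4.3.3 (filterByExpr by group, TMM factors 0.956 to 0.965 in controls and 1.037 to 1.045 with tranilast, quasi-likelihood test, Benjamini-Hochberg over 10770 genes, threshold 0.05). CPM values are TMM-scaled. SEs are the log2 fold change divided by the square root of F. Permutation tests were exact and two-sided on log2(CPM + 0.1). Alternatives used limma 3.58.1 and DESeq2 1.42.0. Simulated counts of 10724 genes were made for this comparison. On these, edgeR recovered 91 of 100 genes changed by 0.5 on the log2 scale and 96 of 100 changed by 1. There were 4 false calls. The simulation gave every gene the same dispersion and changed few genes, equally in both directions. It therefore cannot show how calls hold where 57.0% of genes are called, or for genes that vary more between libraries. Dixon's ratio was computed for 40 genes in each group.

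Coordinates, exons and shared 100-base stretches came from GENCODE M21 (GRCm38), in which 21973 identifiers were found, and promoters from RefSeq GRCm38.p6. The members and lists were chosen with earlier results of these data known. Named genes were all members, at most 5 genes per list with the largest absolute log2 fold change among those called with a mean count of at least 50, and list genes with at most 3 counts in every library; the 5 genes with the highest correlation were named for the member that changed most. Cnpy3, Ly96, Ticam1, Tirap, Irak1, Ikbkb and Sarm1 lie outside that rule and were named after their values were seen. All 8 libraries were used. Intervals of fold changes cover the spread between libraries, and the floor of 3 counts covers counting error only.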

Additional observations from a re-analysis of the deposited data

Results flagged for a closer look

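Dixon's ratio, the gap of the extreme library to its nearest neighbour over the range of its group, was computed in 80 groups of 4 libraries (40 genes), and 3 exceeded the 95% critical value; chance alone exceeds it in about 1 in 20 groups. None was a receptor or Unc93b1. Irf8 in control replicate 2 was the highest of its group (ratio 0.921), at 111 CPM against 106 to 107. Cxcl10 in tranilast replicate 1 was the highest of its group (ratio 0.915), at 12.9 CPM against 5.74 to 6.15. Sarm1 in tranilast replicate 2 was the lowest of its group (ratio 0.914), at 1.16 CPM against 1.84 to 1.92.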

How the results depend on the processing

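Calls of the receptors depended on the scaling. The median log2 fold change over all genes was 0.008 with TMM factors, 0.125 with library size alone, 0.076 with upper-quartile factors and 0.116 or 0.103 on log2(FPKM + 0.1) or log2(FPKM + 1), and the share of called genes that were higher was 49.5%, 70.9%, 62.6%, 70.4% and 70.5%. Called members were 3 higher and 4 lower with TMM. They were 5 higher and 1 lower with library size alone, where Tlr6 and Unc93b1 joined and Tlr1, Tlr3 and Tlr7 dropped out, 4 and 2 with upper-quartile factors, and 4 and 1 on either FPKM scale; no member was called in both directions. Tlr7 turned to 0.007 on log2(FPKM + 0.1) and 0.006 on log2(FPKM + 1), and Cd14 to 0.048 with library size alone and on both FPKM scales; relative to the median of all genes Tlr7 stayed below 0, at -0.15, -0.11 and -0.10. Ly96, not called, turned to -0.012 without tranilast replicate 1, and ranged up to 0.232 with another library left out.

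Leaving out 1 library gave 5 to 8 called members, with 5 without tranilast replicate 2 or without tranilast replicate 4, and 5694 to 5909 called genes, where fewer libraries entered. With a change of at least 1.5-fold also required, a threshold added after seeing the data, 0 members were called by edgeR against 7 without it, and none reached it in any alternative, DESeq2 and limma included. The endosomal share was 39.4% in controls and 33.8% with tranilast from summed CPM, and 16.4% and 13.9% without Tlr7. With the replicate block 7 members and 6009 genes were called. Same-numbered libraries had deviation correlations of -0.057, -0.041, 0.006 and 0.103, and 0 control and 1 tranilast library were closest to their own number. These values show no clear pairing by number, and whether the numbers carry a batch or an order was not tested. Tlr8, at 2 to 10 counts, is limited by depth.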

Other observations

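Of the other cell type lists, Ighm made up nearly all counts of the B cell list (820 to 1109 counts per library, log2 fold change 0.18, edgeR adjusted p = 0.019), while Ms4a1 was at 0. The dendritic cell list summed to 127 to 147 CPM in controls and 91.1 to 106 CPM with tranilast, most of it Tcf4 (log2 fold change -0.49, edgeR adjusted p = 2.1e-07). Of the cholangiocyte list, Spp1, which macrophages also express, held 57626 to 64910 counts in controls and 41980 to 48300 with tranilast (log2 fold change -0.37, edgeR adjusted p = 4.8e-08), and Krt7 was at 0. The endothelial list summed to at most 0.735 CPM, the stellate cell and fibroblast list to at most 2.16 CPM and the T and NK cell list to at most 0.217 CPM in any library.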
